A study of Mus musculus with 6 samples.

Results

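Endothelial nuclei of subcutaneous TC1 lung tumors were examined in single-nucleus RNA-seq libraries of MCT2 control (CO) and MCT2 knockout (KO) mice. Nuclei were kept when they held 100 to 7500 detected genes and under 20% mitochondrial counts, which left 18014 of 18865 barcodes. A kept nucleus was called endothelial when it held at least 3 unique molecular identifiers (UMIs, single counted RNA molecules) in total, spread over at least 2 of the 7 genes Pecam1, Cdh5, Ptprb, Emcn, Tek, Kdr and Cyyr1. It also had to carry under 0.5% of its UMIs in the tumor-cell genes Hmga2, Mecom and Slit2 together, and under 2 UMIs of the macrophage genes Adgre1, Cadm1, Csf1r and Mrc1 together. These rules gave 53 endothelial nuclei of 18014, with 123710 UMIs in all, and the 17961 other kept nuclei formed the comparison.

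All mice carried loxP-flanked MCT2 alleles (gene Slc16a7, a proton-linked carrier of lactate, pyruvate and ketone bodies) together with Cre, and were 8 weeks old. KO mice received tamoxifen and CO mice received vehicle for 5 consecutive days, so tamoxifen exposure and the deletion cannot be told apart. TC1 cells, a mouse lung epithelial tumor line, were injected under the skin of the flank 2 days later and tumors were taken after 24 days, so that any deletion lay in host cells such as endothelium and not in the implanted cells. Each group had 3 libraries, 1 per labelled sample. The promoter that drove Cre is not given in the sources used here. The deposited label names lung as the tissue although the tumors grew in the flank. Because endothelial nuclei held 1 Slc16a7 UMI in all, in CO replicate 2, the deletion could not be checked in them. Levels are given as CPM, the UMIs of a gene scaled to 1000000 UMIs of the summed nuclei. Slc16a7 stood at 131 CPM in macrophage-gene nuclei, which lay below the tumor-gene limit and held 2 or more macrophage UMIs.

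Endothelial cells line blood and lymphatic vessels. They are held together by adherens and tight junctions, rest on a basement membrane of type IV collagen and laminin, and respond to VEGF, angiopoietin, Notch and BMP signals. Transcription factors of the ETS family (Erg, Fli1, Ets1) maintain their identity. In tumors, vessels are recruited from the host, and lymphatic vessels are set apart from blood vessels by the transcription factor Prox1.

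The number of endothelial nuclei was small in every library. CO replicates 1 to 3 gave 3, 9 and 12 nuclei with 3865, 19900 and 15012 UMIs. KO replicates 1 to 3 gave 9, 6 and 14 nuclei with 29825, 13144 and 41964 UMIs. A single UMI was therefore worth 258.7 CPM in the summed endothelial nuclei of CO replicate 1 and 23.8 CPM in those of KO replicate 3. Single nuclei held 549 to 15747 UMIs with a median of 1260, and the deepest nucleus gave between 18.8% and 49.4% of the endothelial UMIs of its library. The median mitochondrial share was 2.96%, 1.95% and 0.185% in CO replicates 1 to 3 and 8.48%, 4.00% and 0.973% in KO replicates 1 to 3. Whole libraries held between 13252572 and 22057084 UMIs.

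Some barcodes occurred in more than 1 library, which bears on 6 of the endothelial nuclei. Of all barcodes, 61 were present in more than 1 library and 16 in all 6. The 6 endothelial nuclei sat on 2 barcodes that were each present in all 6 libraries, 1 with 502 to 656 UMIs per library and the other with 787 to 1036. They belonged to CO replicates 1 and 3 and KO replicates 1 and 2, with 1 each, and to KO replicate 3, with 2. Results are given below with these nuclei and, where counts of genes or nuclei are led with, without them.

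Of the 7 genes that chose the nuclei, 6 were seen in 0.194% to 1.58% of macrophage-gene nuclei, whose median depth of 1276 UMIs was close to that of the endothelial nuclei, and the exception was Pecam1. Pecam1, an adhesion receptor of the endothelial junction, had 10, 36 and 19 UMIs in CO replicates 1 to 3 and 38, 16 and 48 in KO replicates 1 to 3, in 45 of 53 nuclei. It was also seen in 18.7% of the macrophage-gene nuclei, at 190 CPM against 1350 CPM in endothelial nuclei. Cdh5, the cadherin of endothelial adherens junctions, was seen in 30 endothelial nuclei and in 0.360% of macrophage-gene nuclei. Ptprb, the phosphatase that restrains Tie2 and VE-cadherin signaling, was seen in 38, and Cyyr1 in 30. Emcn, a sialomucin of capillaries and veins, had 0 UMIs in CO replicate 1 and 6 to 22 in the other libraries. The receptor genes were scarcer, with 26 UMIs for Tek (Tie2) and 18 for Kdr (VEGFR2). These values describe the selection and were not tested.

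**Figure D1:**
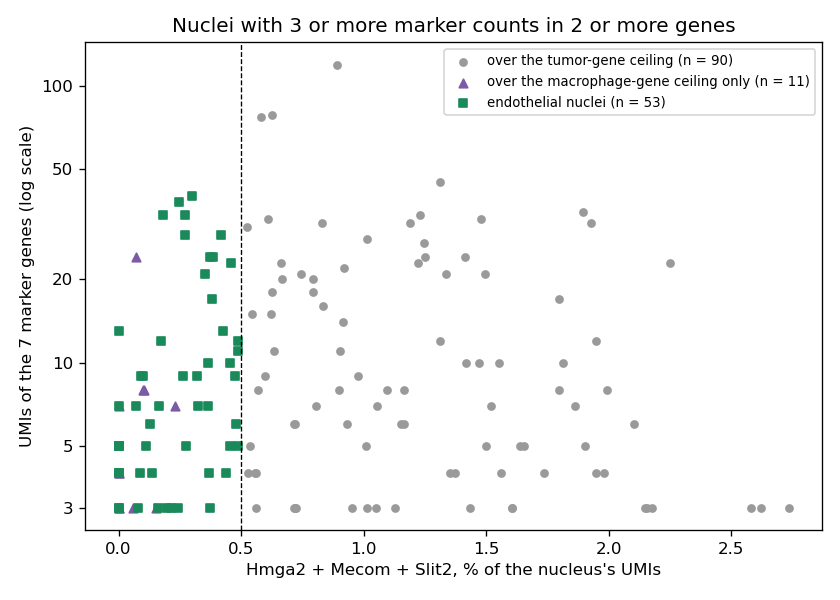
Each point is a nucleus with at least 3 UMIs in at least 2 of the 7 marker genes, placed by the share of its UMIs in Hmga2, Mecom and Slit2 (percent, horizontal) and by its marker UMIs (log scale, vertical), and marked as endothelial or as over a limit. The 53 endothelial nuclei lie below 0.5%, while 90 of the 101 marker-bearing nuclei over a limit lie above it.

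The limits on tumor and macrophage genes decided how many nuclei were included. A further 101 nuclei met the marker rule but exceeded a limit, 90 of them for tumor genes and 34 for macrophage genes. They were deep, with a median of 8595 UMIs. Mecom, a transcription factor gene used here as a tumor gene, had 242 UMIs in 38 endothelial nuclei, at 1956 CPM against 5418 CPM in tumor-gene nuclei and 297 CPM in macrophage-gene nuclei. Slit2, a secreted guidance ligand, stood at 469 CPM in endothelial nuclei and 4886 CPM in tumor-gene nuclei. Whether Mecom in these nuclei came from endothelium or from RNA of tumor cells was not tested.

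A list of 25 endothelial identity genes that the rule did not use (among them Flt1, Erg, Fli1, Cldn5, Adgrl4, Ldb2 and Eng) checked the label. The list made up 116 of every 10000 UMIs in endothelial nuclei. Of the 53 nuclei, 51 held at least 1 of its UMIs, 46 held at least 3 of its genes, and the median was 7 genes with a range of 0 to 19. The deepest nucleus, in KO replicate 3, held 1 UMI of the list among 15747 UMIs, 4 marker UMIs in 2 genes and 1 macrophage-gene UMI, so that 37.5% of the endothelial UMIs of that library came from a nucleus that the list scarcely marked. At a fixed depth of 1000 UMIs per nucleus, 36 of 39 endothelial nuclei (92.3%) held at least 2 counts in at least 2 of the genes, against 3.62% of tumor-gene nuclei and 5.32% of macrophage-gene nuclei. Without thinning the endothelial count was 48 of 53 (90.6%). Thinning used the 39 of 53 endothelial, 9029 of 10160 tumor-gene and 2632 of 3607 macrophage-gene nuclei that were deep enough.

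Just inside the marker threshold, the 8 nuclei with exactly 3 marker UMIs held 67.1 per 10000 UMIs of this list. Just outside, the 103 nuclei with 2 marker UMIs held 9.54, and the 27 nuclei with 3 or more UMIs of 1 marker gene held 8.71. Nuclei with 0 marker UMIs and below both limits held 4.58. At the tumor-gene limit the order was the other way, with 83.7 in the 11 endothelial nuclei at 0.4 to 0.5% and 198 in the 9 marker-bearing nuclei at 0.5 to 0.6%. At the macrophage-gene limit, the 7 endothelial nuclei with 1 UMI held 48.6 and the 2 marker-bearing nuclei with 2 UMIs held 8.58. These neighbours are described without a test.

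To describe the expression of these nuclei, their summed UMIs were compared with the sum of all other kept nuclei of the same library, as a fold of (CPM + 10) over (CPM + 10). A gene was called raised when this fold was at least 2 in each of the 6 libraries. Among the 1526 genes with at least 20 UMIs over the endothelial nuclei, 97 were raised (6.36%), 4 of which the rule itself had used, and the median gene had a fold of 1.18. Without the nuclei on shared barcodes 87 genes were raised. Conversely, 13 genes were at or below 0.5-fold in every library. Because the nuclei were chosen by genes that are expressed together with many of these, the folds carry no test.

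The 24 genes with the highest fold in their lowest library, outside the rule, held several classes of endothelial gene. Ldb2, a LIM-domain binding cofactor, had 14, 77 and 58 UMIs in CO replicates 1 to 3 and 72, 52 and 55 in KO replicates 1 to 3. It was raised 24.8 to 299-fold, with a median of 143-fold, and was seen in 79.2% of endothelial nuclei against 0.610% of macrophage-gene nuclei of like depth. Fbxl7, an F-box protein of ubiquitin ligases, led by its lowest library. It had 2, 39 and 27 UMIs in CO and 29, 33 and 50 in KO replicates, a fold of 39.1 to 119, and was seen in 64.2% of endothelial and 0.638% of macrophage-gene nuclei. Both genes were therefore present in every library and nearly absent from the macrophage-gene nuclei.

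Fabp4, the fatty acid binding protein found in adipocytes and in capillary endothelium, had 11, 15 and 15 UMIs in CO and 24, 17 and 22 in KO replicates, a median fold of 46.1. Meox2, a homeobox factor known in capillary endothelium, had 10, 8 and 14 UMIs in CO and 10, 2 and 19 in KO replicates, a median fold of 33.0. Cdh13 (T-cadherin, a receptor for adiponectin) had 8, 22 and 41 in CO and 96, 33 and 50 in KO replicates, a median fold of 84.0. Together with Fabp4, the scavenger receptor Cd36 reached a median fold of 18.2, although it had 0 UMIs in CO replicate 1 and was not raised by the rule of every library. Gpihbp1, which anchors lipoprotein lipase to capillary endothelium, had 18 UMIs in 10 nuclei. Caveolin Cav1 had 30 UMIs in 19 nuclei and a median fold of 3.13. Of the 14 genes of lipid handling and caveolae, 5 passed the limit of 20 UMIs and 1 (Fabp4) was raised.

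Adhesion G protein-coupled receptors and exchange factors of small GTPases were among the raised genes. Adgrl4 (ELTD1), a receptor of vessel sprouting, had 5, 9 and 9 UMIs in CO and 9, 8 and 18 in KO replicates, a median fold of 37.0. Adgrf5, an adhesion receptor of endothelium and lung epithelium, had 4, 6 and 4 in CO and 9, 7 and 20 in KO replicates, a median fold of 26.9. Rapgef5, an exchange factor for Rap, had a median fold of 65.6 and was seen in 38 of 53 nuclei. It was also seen in 5.71% of macrophage-gene nuclei, at 52.6 CPM against 1204 CPM. Prex2, an exchange factor for Rac, had 13, 23 and 13 UMIs in CO and 8, 30 and 35 in KO replicates.

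**Figure D2:**
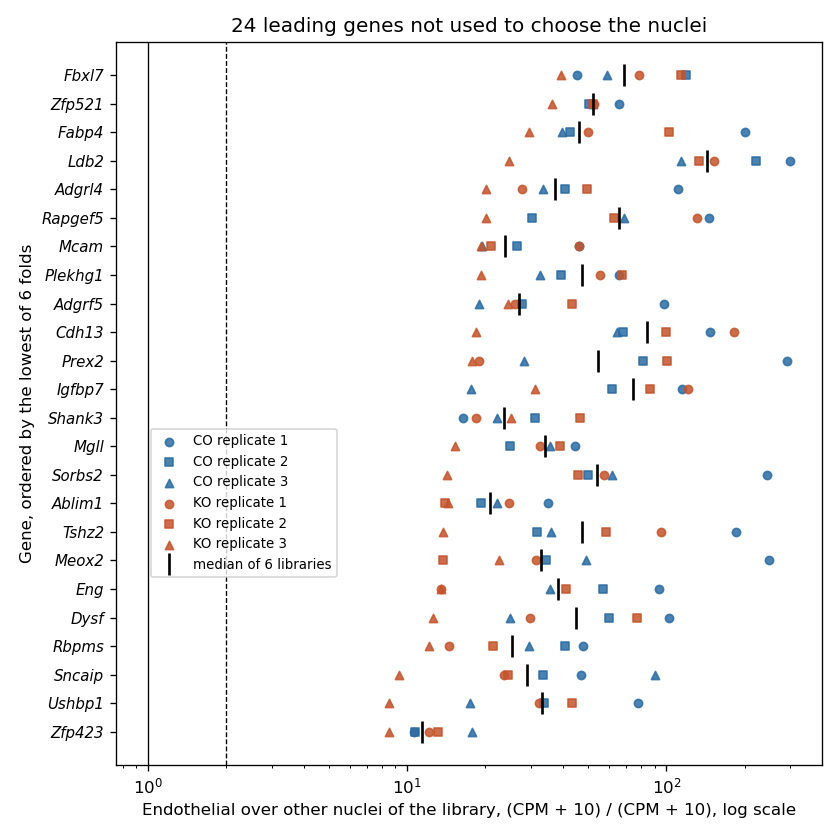
Points give the fold of endothelial over other nuclei in each library, as (CPM + 10) over (CPM + 10) on a log axis, for the 24 leading genes that did not choose the nuclei, ordered by the lowest of their 6 folds. Fbxl7 lies at 39.1 or above in every library and Zfp423, the last of the 24, at 8.51 or above.

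The promoters of 3 of these genes, Adgrl4, Adgrf5 and Eng (endoglin, a BMP co-receptor described further below), are shown because the genes are endothelial receptors that were raised in every library and because each window holds a core sequence bound by ETS factors, 3 of which were raised or present in these nuclei. The core searched was AGGAAG on either strand, written CTTCCT where it lies on the other strand, and it is in capitals. Each window is from RefSeq on GRCm38.p6 and runs from 250 bases before to 50 after an annotated start, here on the plus strand for all 3 genes. The windows are chr3:151437632-151437931 for Adgrl4, chr17:43360181-43360480 for Adgrf5 and chr2:32646345-32646644 for Eng.
Adgrl4: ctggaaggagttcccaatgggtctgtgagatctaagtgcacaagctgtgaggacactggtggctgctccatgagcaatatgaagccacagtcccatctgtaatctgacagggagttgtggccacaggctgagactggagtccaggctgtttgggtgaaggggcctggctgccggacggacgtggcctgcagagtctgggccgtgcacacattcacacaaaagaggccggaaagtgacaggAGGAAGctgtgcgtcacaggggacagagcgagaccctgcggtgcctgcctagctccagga
Adgrf5: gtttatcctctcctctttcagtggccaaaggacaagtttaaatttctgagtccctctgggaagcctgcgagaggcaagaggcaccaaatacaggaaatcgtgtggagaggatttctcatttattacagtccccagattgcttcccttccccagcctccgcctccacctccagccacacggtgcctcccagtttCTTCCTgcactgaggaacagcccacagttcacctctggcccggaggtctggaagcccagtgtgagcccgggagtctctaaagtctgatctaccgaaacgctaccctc
Eng: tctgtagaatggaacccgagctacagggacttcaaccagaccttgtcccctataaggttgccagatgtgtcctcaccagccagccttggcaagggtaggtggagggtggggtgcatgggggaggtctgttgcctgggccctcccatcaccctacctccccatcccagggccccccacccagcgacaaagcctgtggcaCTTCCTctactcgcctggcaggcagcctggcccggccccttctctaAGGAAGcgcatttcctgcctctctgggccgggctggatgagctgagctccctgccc
Adgrl4 and Adgrf5 held 1 match each, and Eng held 2, 1 on each strand. Adgrf5 has another annotated start at chr17:43389216-43389515 whose window held 0 matches. The core is common. It occurred in 11613 of 32851 promoter windows of the table (35.4%), and in 12 of the 28 windows (42.9%) of the 17 leading genes that had an entry. A match describes the letters only. Zfp521, Fabp4, Ldb2, Cdh13, Prex2, Rbpms and Sncaip had no entry.

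In the gene annotation (GENCODE M21, GRCm38), Adgrl4 spans chr3:151437887-151545086 on the plus strand with 18 merged exons, Adgrf5 spans chr17:43360451-43459557 on the plus strand with 22, and Eng spans chr2:32646595-32682669 on the plus strand with 14. The windows above therefore lie at the 5′ ends of the 3 genes. Pecam1 spans chr11:106654217-106750628 on the minus strand with 17 merged exons. Cdh5 spans chr8:104101625-104144511 on the plus strand with 13.

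Among transcription factors, 11 of 26 listed genes passed the limit and 4 were raised, with a median fold of 3.99. Epas1 (HIF-2α) had a median fold of 13.2, Fli1 of 9.53 and Ets1 of 4.90, beside Meox2. Fli1 had 2, 18 and 16 UMIs in CO and 24, 8 and 19 in KO replicates, and stood at 703 CPM against 537 CPM in macrophage-gene nuclei and 24.0 CPM in tumor-gene nuclei, so its contrast was with tumor cells. Erg had 29 UMIs in 18 nuclei and a median fold of 15.4, but 0 UMIs in KO replicate 2. Erg stood at 234 CPM in endothelial nuclei and at 1.11 CPM in macrophage-gene nuclei. Zfp521, a zinc finger cofactor, had 3, 13 and 18 UMIs in CO and 19, 12 and 42 in KO replicates and a median fold of 52.1. Etv2, Foxc2, Foxf1, Lyl1 and Meox1 had 0 UMIs. A count of 0 over these nuclei allows up to 24.3 CPM, counting error only.

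VEGF receptors and their partners were represented mainly by Flt1 (VEGFR1), the high-affinity VEGF receptor. Flt1 had 10, 18 and 22 UMIs in CO and 59, 27 and 45 in KO replicates, in 34 nuclei, with a median fold of 8.45. Its level was 1463 CPM in endothelial nuclei, 207 CPM in tumor-gene nuclei and 41.9 CPM in macrophage-gene nuclei. Nrp2, a co-receptor, was raised with a median fold of 5.54, and Nrp1 was not, with a lowest fold of 0.429 and with 431 CPM in macrophage-gene nuclei against 364 CPM in endothelial nuclei. In all, 4 of the 7 genes passed the limit and 3 were raised, 1 of them being Ptprb from the rule. Of 8 VEGF and angiopoietin ligands only Vegfc passed the limit, and 18 of its 26 UMIs came from 1 nucleus. Tie1 had 18 UMIs in 14 nuclei and 0 in CO replicate 1 and KO replicate 2.

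Notch and BMP genes were sparse. Notch4, the Notch receptor of endothelium, had 24 UMIs in 15 nuclei and a median fold of 12.3, at 194 CPM against 3.54 CPM in tumor-gene nuclei. The ligand Dll4 had 8 UMIs in 3 nuclei, all in KO replicates 1 and 3, and the target genes Hey2 and Heyl had 0. Only 2 of the 14 Notch genes passed the limit of 20 UMIs, and 0 were raised, against 6.36% of all genes that passed it. Of 13 genes in the BMP9 and ALK1 pathway 4 passed it. Eng was the only raised gene among them, with a median fold of 38.2 and UMIs in 29 nuclei. Its signaling partner Acvrl1 (ALK1) had 10 UMIs in 6 nuclei, and Bmpr2 had 66 UMIs with a median fold of 2.71, falling to 1.59 in KO replicate 1.

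Junction and basement membrane genes differed in how they were shared with other nuclei. Of 15 junction genes, 8 passed the limit and 3 were raised. Jam2 had a median fold of 18.2 and Esam of 15.6, both below 3 CPM in tumor-gene nuclei, and Cdh13 is given above. Cldn5, the main claudin of tight endothelium, had 15 UMIs in 9 nuclei and 0 in CO replicate 2 and KO replicate 2. Of 17 basement membrane genes 15 passed the limit, but only Lama4 and Col4a1 were raised. Lama4, the laminin chain of vessels, stood at 825 CPM against 62.6 CPM in tumor-gene nuclei. Col4a1 had 8, 18 and 16 UMIs in CO and 74, 18 and 41 in KO replicates, at 1415 CPM against 281 CPM in tumor-gene nuclei. Summed over the list, the level was 8326 CPM in endothelial nuclei and 2380 CPM in tumor-gene nuclei. By library it was 8021, 4271 and 6728 CPM in CO and 14049, 6999 and 7197 CPM in KO replicates.

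Guidance receptors were represented by Plxna2 and Sema6d, raised with median folds of 8.87 and 5.31, and by Sema6a, which had a median fold of 28.2 but 0 UMIs in CO replicate 1. Of the genes that respond to flow or set vessel tone, Calcrl, the receptor subunit for adrenomedullin, was raised with a median fold of 12.9, and Nos3 (endothelial nitric oxide synthase) had 19 UMIs in 11 nuclei. Leukocyte adhesion genes were scarce, and Ackr1 and Madcam1 had 0 UMIs. Of 14 genes for metabolite transport, which included the lactate carriers, 3 passed the limit of 20 UMIs and 0 were raised. That is too few to set against the 6.36% raised over all genes that passed it. Slco2a1, the prostaglandin transporter, had a median fold of 15.2. Slc16a1 (MCT1) had 0 UMIs and Slc16a3 (MCT4) had 6, too few to be called.

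**Figure D3:**
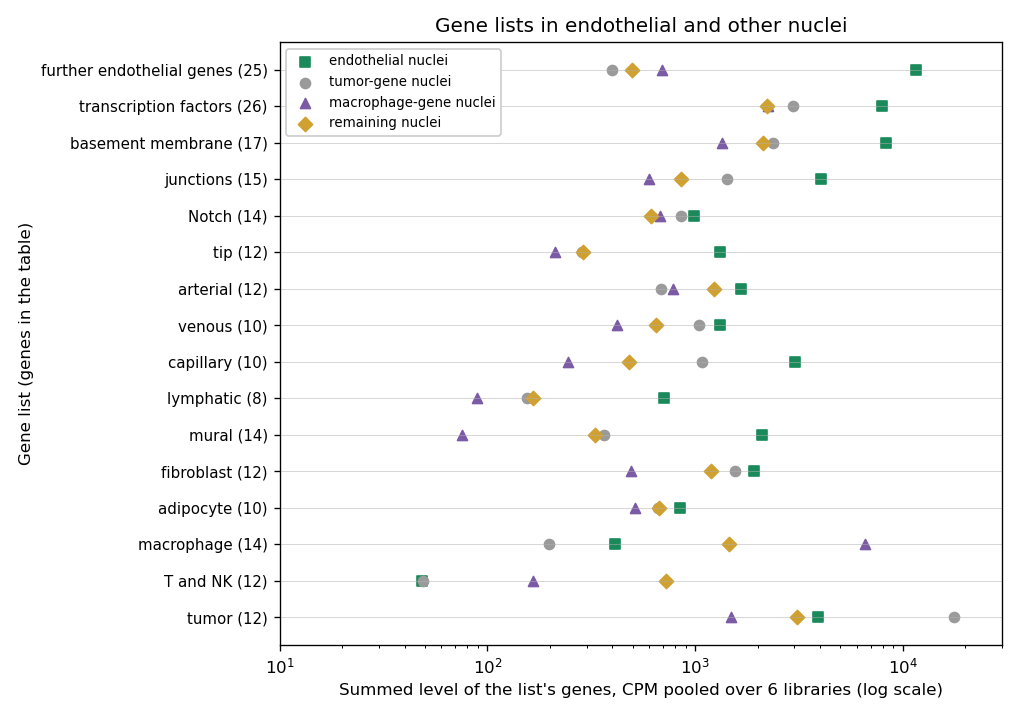
Each row is a gene list and each point the summed level of its genes, in CPM pooled over the 6 libraries on a log axis, in endothelial, tumor-gene, macrophage-gene and remaining nuclei. The identity list stands at 11584 CPM in endothelial nuclei and at 399 to 692 CPM in the other 3 classes. The macrophage list lies at 412 CPM in endothelial and 6586 CPM in macrophage-gene nuclei. The macrophage and tumor lists hold genes of the selection rule, which limited them in endothelial nuclei.

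Lists for vessel types overlapped within the same nuclei. A nucleus was said to hold a list when it had at least 2 UMIs in at least 2 of its genes. The capillary list was held by 31 nuclei, the arterial by 24, the venous by 23, the tip cell list by 19 and the lymphatic by 5, and 11 held none. Of the 19 nuclei with the tip cell list, 15 also held the arterial and 16 the capillary list. Only 4 tip cell, 4 arterial and 3 venous genes passed the limit of 20 UMIs, and 0 of them were raised. Over all genes that passed this limit 6.36% were raised, so 0 among so few sets no vessel type apart. Kit, with a median fold of 13.6, was the only raised capillary gene of 4 that passed it. Tip cell genes such as Esm1 and Apln had 4 and 3 UMIs.

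The 5 nuclei that held the lymphatic list were the 5 nuclei with a Prox1 UMI, and they stood apart from the other 48 in a group of genes. They were singled out after their values were seen and are described without a test. CO replicates 2 and 3 had 1 each, KO replicate 2 had 3 of its 6 endothelial nuclei, and the other 3 libraries had 0. They held 1120 to 2822 UMIs each, 9670 in all. Prox1 (14 UMIs), Reln (18), Sema3d (17) and Mmrn1 (9), all known lymphatic endothelial genes, were found in these nuclei and had 0 UMIs in the other 48. For Prox1 that 0 holds by definition. Reln, Sema3d, Mmrn1, Flt4 and Lyve1 are on the lymphatic list, so the holding of that list partly set their contrast. Prox1 was seen in 0.0277% of macrophage-gene and 0.0984% of tumor-gene nuclei. Flt4 (VEGFR3), the receptor for VEGF-C on lymphatic vessels, had 8 UMIs in 4 of the 5 nuclei and 5 UMIs in 4 of the 48. Lyve1, a hyaluronan receptor, had 4 UMIs in 2 of the 5 nuclei and 1 UMI in the others.

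Several genes of blood vessel endothelium had 0 UMIs in the same 5 nuclei, among them Cyyr1 and Emcn of the selection rule, and others did not. Flt1 had 0 UMIs there and 181 in the other 48, where an equal level would have given 15.3. Cyyr1 had 0 against 120, with 10.2 at an equal level. Fabp4 had 0 against 104, with 8.82. Emcn had 0 against 81, Adgrl4 had 0 against 58 and Plvap, which forms the diaphragms of fenestrae and caveolae, had 0 against 36. Meox2 and Igfbp7 had 1 UMI each, with 5.26 and 18.3 at an equal level. Kdr had 1, Tek 2 and Eng 6, with 1.44, 2.04 and 4.92 at an equal level. Ldb2 had 32 UMIs in all 5 nuclei and Zfp521 had 20 in all 5. Ptprb was found in all 5, and Cdh5 and Pecam1 were found in 2 and 3. Ptprb, Cdh5 and Pecam1 are genes of the rule. With Cyyr1 and Emcn at 0 UMIs and few of Kdr and Tek, their presence was largely set by the selection. Without these 5 nuclei 89 genes were raised in place of 97.

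Proliferation, antigen presentation and interferon lists held 0 raised genes, but only 2, 6 and 6 of their genes passed the limit of 20 UMIs. Over all genes that passed it 6.36% were raised. The 12 cycling genes summed to 1221 CPM, against 2593 CPM in tumor-gene nuclei and 1321 CPM in macrophage-gene nuclei. Top2a, the mitotic topoisomerase, had 14 of its 25 UMIs in CO replicate 2. H2-K1, H2-D1 and B2m of the class I complex had median folds of 0.995, 0.928 and 1.07. The 6 interferon response genes over the limit had a median fold of 1.92 and the 2 hypoxia genes over it of 0.852.

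Markers of other cell types differed by list. T and NK cell, muscle and blood genes were low, while the mural, fibroblast and adipocyte lists were each held by 20 to 27 of the 53 nuclei. For T and NK cells 9 of 12 genes had 0 UMIs, for skeletal muscle 6 of 10 and for blood cells 5 of 8, and 0 endothelial nuclei held any of these lists. Of 14 macrophage genes 8 had 0 UMIs, including Adgre1, Csf1r and Cd163. The list summed to 0 to 799 CPM by library against 6586 CPM in macrophage-gene nuclei. Adgre1 and Csf1r are genes of the rule that also chose the macrophage-gene nuclei, so this contrast was largely set by the selection. Stab1, a scavenger receptor of macrophages and of some endothelia, was the only gene of the list over the limit of 20 UMIs, with 27. Of 14 mural cell genes Acta2, Cspg4, Gucy1a1, Myh11 and Tagln had 0 UMIs and Pdgfrb had 1. The mural list summed to 2110 CPM, against 364 CPM in tumor-gene, 75.9 CPM in macrophage-gene and 330.4 CPM in remaining nuclei, and was held by 23 nuclei. Mcam and Ebf1, both on the mural list, were raised, with median folds of 23.8 and 4.69. Mcam is also known in endothelium.

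The fibroblast list was held by 27 nuclei and summed to 1924 CPM, against 1555 CPM in tumor-gene, 491 CPM in macrophage-gene and 1196 CPM in remaining nuclei. Lum, Pi16 and Abca8a had 0 UMIs and Col1a1 had 2, while Col3a1 had 52 UMIs in 19 nuclei and Pdgfra 21 UMIs in 12, with median folds of 0.839 and 0.255. Tshz2, with 138 of the list's 238 UMIs in 37 nuclei, was raised with a median fold of 47.2. The adipocyte list was held by 20 nuclei and summed to 849 CPM, against 513 to 670 CPM in the other 3 classes. Adipoq and Plin1 had 0 UMIs, while Mgll, a monoacylglycerol lipase, was raised with a median fold of 34. The 12 tumor genes summed to 3912 CPM against 17533 CPM in tumor-gene nuclei, with 2070 to 4647 CPM by library. The 6 of them with at least 20 UMIs had a median fold of 0.227. This list holds genes of the rule, Mecom among them, so the contrast was largely set by the selection. The 3 tumor genes of the rule alone stood at 2942 CPM in endothelial and 15448 CPM in tumor-gene nuclei. At least 1 of the mural, T and NK, fibroblast, muscle and adipocyte lists was held by 41 of the 53 nuclei. These are the lists meant below by another cell type list. In the 12 nuclei with none of them 5 of 42 genes with enough UMIs were raised, against 97 of 1526 in all 53. The tumor and macrophage lists were not part of that count, and were held by 33 and 10 of the 53 nuclei. The part of other cell types in the levels above was not tested. The 500 of 18014 nuclei with the highest doublet scores within their libraries included 0 of the 53 endothelial nuclei. With so few marked, this says little about mixed nuclei. The median doublet score was 0.069 in endothelial, 0.072 in tumor-gene, 0.049 in macrophage-gene and 0.049 in remaining nuclei.

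The share of endothelial nuclei differed between groups by less than the spread between libraries. It was 0.0983%, 0.30% and 0.670% in CO replicates 1 to 3, with exact 95% binomial intervals of 0.0203 to 0.287%, 0.137 to 0.569% and 0.347 to 1.17%. In KO replicates 1 to 3 it was 0.188%, 0.303% and 0.409%, with intervals of 0.0862 to 0.357%, 0.111 to 0.659% and 0.224 to 0.686%. The intervals cover counting error only. KO values lay inside the CO range. The mean was 0.356% ± 0.290 (SD, n = 3) in CO and 0.30% ± 0.110 (SD, n = 3) in KO, a difference of -0.0560 percentage points (two-sided exact permutation test, p = 0.9, where 3 against 3 libraries cannot go below 0.1). Pooled by group the shares were 24 of 7839 (0.306%) in CO and 29 of 10175 (0.285%) in KO. Without the nuclei on shared barcodes the difference was -0.0714 points (exact permutation p = 0.8), and without those with a Prox1 UMI it was -0.0768 points (exact permutation p = 0.7).

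**Figure D4:**
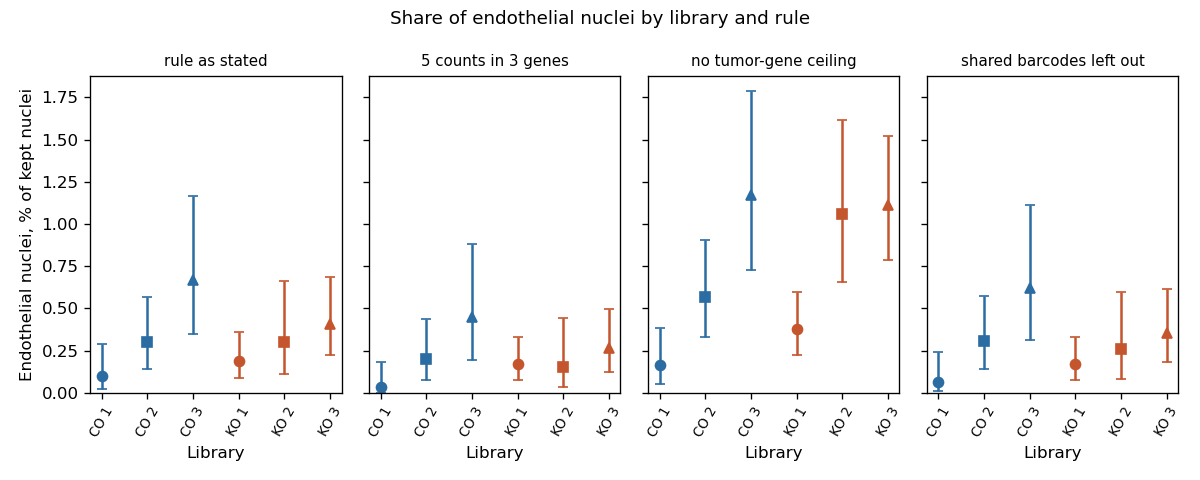
Each panel gives, for 1 reading of the selection rule, the share of kept nuclei called endothelial (percent) in each CO and KO library, with exact 95% binomial intervals as bars. Under the rule used, CO libraries span 0.0983 to 0.670% and KO libraries 0.188 to 0.409%.

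The direction of the share depended on the tumor-gene limit. With no limit on tumor genes there were 120 nuclei, and the mean share was 0.635% ± 0.508 (SD, n = 3) in CO and 0.850% ± 0.410 (SD, n = 3) in KO, 0.215 points higher in KO (exact permutation p = 0.7). With the limit on Hmga2 alone it was 0.112 points higher in KO (exact permutation p = 0.8). Leaving out CO replicate 3 also turned the difference, to 0.101 points.

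Expression in KO and CO endothelial nuclei was compared on UMIs summed per library, with the quasi-likelihood F-test of edgeR over all 6 libraries. Only CO replicate 3 and KO replicate 3 had 10 or more nuclei, which would have left 1 library per group and no test, so all libraries were used whatever their number of nuclei. Of 185 genes with enough UMIs, 0 (0%) passed an absolute log2 fold change of 0.58 and a Benjamini-Hochberg adjusted p of 0.05. At an unadjusted p under 0.05 there were 5, and DESeq2 called 1. Without the nuclei on shared barcodes the edgeR count was 0 of 192. The levels of KO and CO did not overlap in 23 genes (12.4%), and KO lay above CO in every library in 10 (5.41%). With exchangeable labels, 3 against 3 libraries would lie apart in a share of about 0.1 of genes. The 12.4% is close to that, so a lack of overlap in a gene is weak by itself. Nothing in the labels states that the libraries came from separate animals, so p-values measure the spread between these libraries.

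Igfbp3, a secreted binding protein of insulin-like growth factors, had the smallest p. It had 0, 8 and 4 UMIs in CO replicates 1 to 3 and 91, 16 and 78 in KO replicates 1 to 3. In CPM these were 0, 402 and 266 in CO and 3051, 1217 and 1859 in KO, so that the groups did not overlap. The means were 223 ± 205 (SD, n = 3) and 2042 ± 931 (SD, n = 3) CPM. On the log2 scale KO was 2.90 higher, with an SE of 0.69 and an adjusted p of 0.214 in edgeR. It was higher in KO under each of the 19 alternatives that gave a value, with log2 fold changes of 1.15 to 8.07, the last from a reading in which all CO libraries were at 0 UMIs and the value depends on the prior count. DESeq2 called it at 3.03 with an adjusted p of 0.0205, and edgeR called it without KO replicate 2 (3.21, adjusted p 0.0188). Over the libraries left out in turn the adjusted p ranged from 0.0188 to 0.998. Over all alternatives it ranged from 0.000415 to 1.00.

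Igfbp3 UMIs came from few nuclei. The gene was seen in 5 of 24 CO nuclei and 12 of 29 KO nuclei, in 7 of 9 in KO replicate 1, 2 of 6 in KO replicate 2 and 3 of 14 in KO replicate 3. A single nucleus gave 41 of 91 UMIs in KO replicate 1, 14 of 16 in KO replicate 2 and 54 of 78 in KO replicate 3. Without the deepest nucleus of each library the levels were 0, 701 and 328 CPM in CO and 2357, 228 and 2975 CPM in KO, and the groups overlapped. With at least 500 genes and under 5% mitochondrial counts per nucleus the KO libraries kept 10, 2 and 24 UMIs, at 2719, 384 and 1290 CPM against 0, 820 and 281 CPM in CO, and the groups overlapped as well. Over 12 other selections of the nuclei they overlapped in 4. At 1000 UMIs per nucleus Igfbp3 had 0, 2 and 3 UMIs in CO and 16, 6 and 9 in KO replicates. All other nuclei of the same libraries held it at 7.0 to 23.7 CPM. Without a limit on tumor genes its log2 fold change was 1.15 (edgeR adjusted p 0.996). Igfbp3 lies at chr11:7206086-7213923 on the minus strand of GRCm38, with 5 merged exons.

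**Figure D5:**
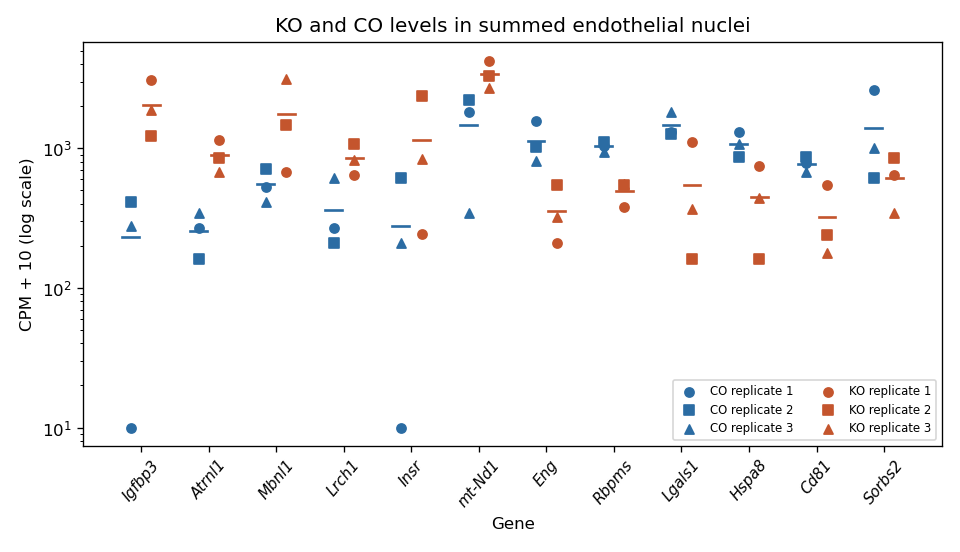
Points give the level in the summed endothelial nuclei of each library, as CPM + 10 on a log axis, for genes named in the comparison of KO with CO, with the groups marked by color, replicates by shape and group means by short lines. For Igfbp3 the KO libraries lie at 1217 to 3051 CPM above the CO libraries at 0 to 402, and for Eng the KO libraries lie at 201 to 533 below the CO libraries at 799 to 1552, neither passing the edgeR threshold.

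Eng had the smallest p among genes lower in KO. It had 6, 20 and 12 UMIs in CO and 6, 7 and 13 in KO replicates, or 1552, 1005 and 799 CPM against 201, 533 and 310 CPM. The groups did not overlap, with means of 1119 ± 389 (SD, n = 3) and 348 ± 169 (SD, n = 3) CPM. The change was -1.54 on the log2 scale, with an SE of 0.51 and an adjusted p of 0.672 in edgeR. It was seen in 16 of 24 CO and 13 of 29 KO nuclei, and its log2 fold change stayed between -1.75 and -0.45 under all 19 alternatives. Rbpms, an RNA-binding protein, had 1035, 1106 and 933 CPM in CO and 369, 533 and 548 CPM in KO (log2 fold change -0.96, edgeR adjusted p 0.982). Atrnl1, an attractin-like membrane protein, had 259, 151 and 333 CPM in CO and 1140, 837 and 667 CPM in KO (1.98, edgeR adjusted p 0.402). None of these 3 genes passed the adjusted threshold. Over 12 other selections of the nuclei the groups overlapped in 5 for Eng, 6 for Rbpms and 1 for Atrnl1. For Eng they overlapped without the Prox1 nuclei, where KO replicate 2 stood at 882 CPM against 876 and 820 CPM in CO replicates 2 and 3. The 7 genes of the rule together also lay lower in KO, at 3923 to 4869 CPM against 5779 to 6210 CPM. The 25 identity genes, which include Eng, overlapped, at 8174 to 14912 CPM in KO and 11206 to 19922 CPM in CO. Whether the lower Eng level is apart from such shifts was not tested.

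The other genes with the smallest p in each direction had larger adjusted values. The log2 fold change was 1.78 for Mbnl1 (edgeR adjusted p 0.978), where 1 nucleus of KO replicate 3 gave 105 of its 191 UMIs. For the rest the adjusted p was 0.982. The values were 1.54 for the insulin receptor Insr, 1.27 for Lrch1, 0.98 for Nf1, 0.75 for Dock1 and 0.70 for Asap1. The mitochondrial transcripts mt-Co2 and mt-Nd1 had 1.42 and 1.32, beside mitochondrial shares that differed between libraries as given above. In the other direction they were -1.19 for Lgals1, -1.16 for Cd81, -0.95 for Hspa8, -0.88 for Aopep, -0.85 for Sorbs2 and Ifitm3, -0.84 for Macf1 and -0.72 for Ptprb.

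By list, no endothelial group contained a called gene. The identity list had 8 genes tested, 3 higher and 5 lower in KO, with a median log2 fold change of -0.43 against -0.03 over all 185 genes. Of the genes of the rule 5 were tested, 1 higher and 4 lower, with Pecam1 at -0.43 and Cdh5 at 0.01. Those genes chose the nuclei by a floor of 3 UMIs, so their CPM also depends on nucleus depth. The median depth was 1383, 1541 and 1047 UMIs in CO and 2163, 2041.5 and 1238.5 in KO replicates. All 7 together stood at 6210, 5779 and 5795 CPM in CO and 3923, 4869 and 4075 CPM in KO. Their direction cannot be told apart from the selection. Over all 185 genes 88 were higher and 97 lower. The 3 basement membrane genes tested, Col4a1, Col4a2 and Lama4, were at 0.55, 0.83 and 0.57. The 3 class I genes tested, H2-K1, H2-D1 and B2m, were at -0.38, -0.28 and -0.18. Flt1 was at 0.32 and Bmpr2, the receptor that pairs with Eng, at 0.10. Of the 24 leading genes 17 were tested, 8 higher and 9 lower.

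Whether the KO over CO change in endothelial nuclei differed from that in all other nuclei was tested as an interaction in edgeR with library as a block. Of 12231 genes 0 (0%) passed, while 296 lay under an unadjusted 0.05. DESeq2 gave 0 calls and 119 genes under the same unadjusted value. The count filter took both classes together, so most genes entered through the far larger sums of the other nuclei. In endothelial nuclei alone 185 genes had enough UMIs. For most genes the test could therefore hardly call a difference, and the adjusted values carry that burden. For Igfbp3 the difference of log2 fold changes was 2.67 (SE 0.75, unadjusted p 0.000382, edgeR adjusted p 1). The other nuclei themselves held Igfbp3 at 11.3, 7.41 and 11.6 CPM in CO and 13.6, 7.0 and 23.7 CPM in KO replicates. For Atrnl1 the difference was 2.06 (SE 0.82, edgeR adjusted p 1).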

How the data were processed

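Single-nucleus libraries (10x Chromium, 3′) were made from frozen tumors. The authors aligned reads to GRCm38 with Cell Ranger 3.0.2 (the file headers give 3.1.0) and deposited raw UMI counts per gene and barcode for 22623 genes. The methods name ambient RNA removal before analysis, but the deposited counts are whole numbers and no such step is visible in them. Selected samples had extra washes, and which ones is not given in the sources used here. Nuclei were selected as stated above, and doublets were not removed in the main result because Scrublet in scanpy 1.11.5 marked 0.0611% of nuclei by its own threshold. Removing its 500 highest scores was an alternative. Counts were summed per library and tested with edgeR 4.0.16 (TMM, filterByExpr, quasi-likelihood) and, as an alternative, DESeq2 1.42.0. A minimum of 10 nuclei per library was planned and left 1 library per group, so the fit over all 6 libraries was added after the numbers of nuclei were seen. Code was tested on simulated data. Genes were named by a rule: those that chose the nuclei, Slc16a7, 24 leading genes, up to 4 per list by median fold and the 10 smallest p in each direction. Further list members are named for their role, and these and the Prox1 nuclei were chosen after their values were seen. The nuclei, gene lists and tests were chosen with earlier results of these data known, and 1 gene list is not reported here. Depth limits every value, since 123710 UMIs lie in 53 nuclei.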

Additional observations from a re-analysis of the deposited data

How the results depend on the processing

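The number of raised genes, 97, depended on the selection and depth. The number with enough UMIs, 1526, moved with it. Raised were 61 of 910 with at least 5 UMIs in at least 3 marker genes, 35 of 560 with at least 3 UMIs in each of 2 marker genes, 160 of 5481 with the tumor limit on Hmga2 alone, 49 of 510 with at least 500 genes and under 5% mitochondrial counts, 26 of 156 at 1000 UMIs per nucleus, 5 of 42 without nuclei holding another cell type list and, chosen after seeing the data, 63 of 844 without the deepest nucleus of each library. Leaving out each library in turn gave 89 to 126. The share difference between groups became positive with at least 3 UMIs in each of 2 marker genes (0.0328 points), with no tumor limit (0.215) and with the limit on Hmga2 alone (0.112), and it ranged from -0.185 to 0.101 as libraries were left out. Genes called KO over CO numbered 2 of 56 (Igfbp3 and Cdh13) with at least 3 UMIs in each of 2 marker genes, 1 of 185 (Igfbp3) with DESeq2, 1 of 10807 (Chga) with no low-count filter, and 0 to 1 as libraries were left out, the 1 being Igfbp3 without KO replicate 2. Igfbp3 was at 3.03 with DESeq2, 8.07 under the stricter marker reading, where all CO libraries were at 0 UMIs, and 3.21 without KO replicate 2. The interaction called 1 gene (Igfbp3) under that reading, 24 with no macrophage limit (1 higher and 23 lower), 2 with no tumor limit and 2 with the limit on Hmga2 alone. Its median over all genes was 0.36, or 0.25 with DESeq2 size factors and -0.08 in DESeq2, and single genes are read against that shift. The log2 fold change turned sign for Rbpms (0.032), Sorbs2 (0.23) and Ptprb (0.19) with the limit on Hmga2 alone, for Sorbs2 (0.35) and Ptprb (0.51) with no macrophage limit and for Sorbs2 (0.46) with no tumor limit in libraries of at least 10 nuclei. The cause of these changes was not tested. A fit without nuclei holding another cell type list gave no value for genes in endothelial nuclei, since fewer than 20 genes remained. CO and KO share replicate numbers, but in endothelial nuclei same-numbered libraries correlated at 0.06, -0.29 and -0.11 in their deviations over 84 genes, and in all other nuclei at 0.63, -0.41 and 0.40 over 9395 genes. Replicate 2 was negative in both, so the numbers were not taken to pair the samples. With a replicate block 0 genes were called (8 at an unadjusted p under 0.05, smallest edgeR adjusted p 0.279), 0 for the interaction, and the share difference stayed at -0.0560 points. At this depth only 185 of 22623 genes could be tested in endothelial nuclei.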
